A study of Mus musculus with 8 samples.

Results

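The ErbB receptors and the neuregulins were followed in the RNA that ribosomes hold at cortical synapses, pulled down from MGE/POA-derived interneurons, cells that arise in the medial ganglionic eminence or the preoptic area. The 8 genes are the receptors Erbb4, Erbb2, Erbb3 and Egfr and the ligands Nrg1, Nrg2, Nrg3 and Nrg4, found by their symbols among 56576 rows of the deposited gene table. All 8 passed the filter on low values, a mean of 10 normalized counts or more in either genotype, as did 31171 rows in all. The study compared 4 libraries of controls, of genotype Lhx6-Cre;ErbB4+/+;Rpl22HA/HA, with 4 of Erbb4 conditional mutants, of genotype Lhx6-Cre;ErbB4F/F;Rpl22HA/HA, each from cortical synaptosomes of mice at postnatal day 15. Every animal, control or mutant, carried Lhx6-Cre and the Rpl22HA allele, by which Cre-expressing cells make a ribosomal protein with an HA tag that antibody-coated beads can hold. Lhx6-Cre drives recombination in the MGE/POA lineage, so Erbb4 of other cells is not removed. The sources used here do not state which exon of Erbb4 is flanked by loxP sites.

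ErbB receptors are tyrosine kinases of the cell surface that work in pairs. A neuregulin carries an EGF-like domain that binds ErbB3 or ErbB4, ErbB2 binds no known ligand and serves as a partner of the others, and the EGF receptor is opened by EGF and its relatives. In the cortex ErbB4 is found mainly in interneurons, above all PV+ cells, while neuregulins are supplied both by excitatory axons and by other cells around them.

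The receptors are paralogs, so it was first examined whether their reads could be confused. Of the 28 pairs that the 8 genes form, 0 shared any stretch of 31 bases between their GENCODE transcripts. A search of the translated coding sequences found the loop of the kinase domain that holds the catalytic aspartate in exon 21 of all 4 receptors. This loop is an example of how their bases differ, though such differences can leave the protein unchanged. Its 24 bases are given from GENCODE on mm10, 5′ to 3′ on the coding strand, with the codon of the aspartate in capitals.
Erbb4, chr1:68080739-68080762, minus strand: catcggGATctggcagcccgcaat
Erbb2, chr11:98434247-98434270, plus strand: cacaggGACctagctgcccgaaac
Erbb3, chr10:128572533-128572556, minus strand: cataggGACcttgcgctccggaat
Egfr, chr11:16904338-16904361, plus strand: caccgtGACttggcagccaggaat
Erbb4 and Egfr were the closest pair here, with 6 of 24 bases different, and Egfr and Erbb3 the farthest, with 9.

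Values are normalized counts, the reads on a gene's constitutive regions divided by 1 size factor per library. Libraries held 51010687 to 80226984 such reads. Control replicate 1 had the fewest rows above 0, 28247 against 31141 to 34364 in the other libraries. Markers of the pulled-down lineage were present in every library, among them Lhx6 at 532 to 1781 normalized counts. So were those of cells outside it, such as the excitatory gene Slc17a7 at 87106 to 122229 and the myelin gene Mbp at 141073 to 535543. From which of these cells the RNA of a receptor or a neuregulin came cannot be told apart in pulled-down RNA. No label ties a library to a sequencing batch, so values within batches are not given.

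Between genotypes, Erbb4 was lower and Erbb2 higher in Erbb4 conditional mutants, while the other 6 genes did not pass the test. A gene was called when its unadjusted limma p was at most 0.05 and its fold change at least 1.5, the thresholds of the study. By that rule 7.15% of all rows tested were called, 3.17% as lower and 3.98% as higher in mutants. The study applied its thresholds to DESeq2 and reported most of its differential genes as lower. Which direction prevailed depended on the tool, with 988 rows lower and 1241 higher by limma. DESeq2 on whole reads recovered from the values called 1573 lower and 1261 higher, and edgeR 1206 and 1073. Among the members 1 of 8 was called lower and 1 of 8 higher, counts that so few genes cannot set apart from the background. After Benjamini-Hochberg adjustment over all rows 0.0449% of them (14) passed an adjusted limma p of 0.05 and 0 of the members did.

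**Figure D1:**
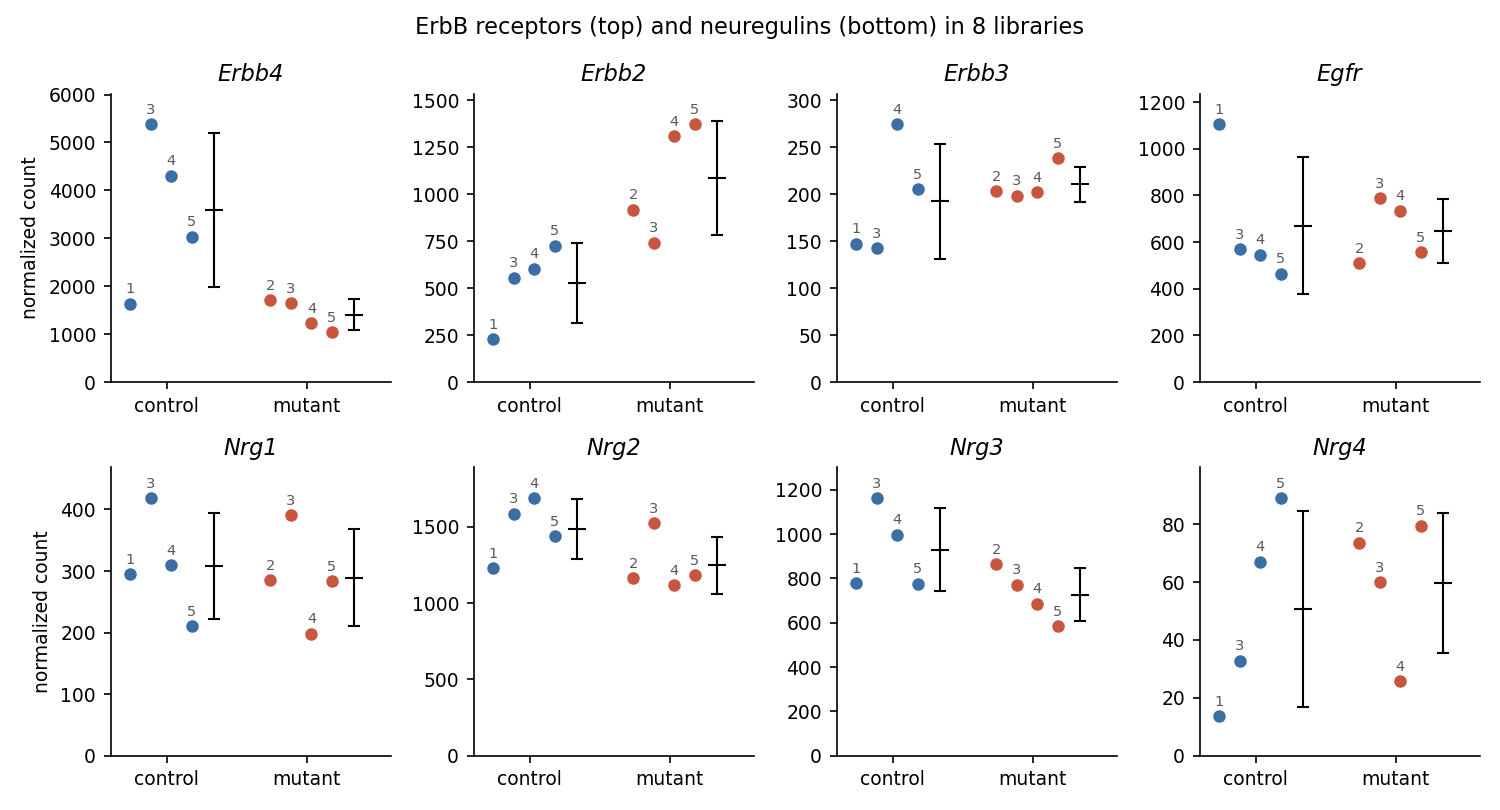
Normalized counts (vertical axes, from 0) of the 4 receptors and 4 neuregulins in the control libraries (blue) and Erbb4 conditional mutant libraries (red), numbered by replicate, with the mean ± SD of each genotype in black. Mutant libraries lie above all controls for Erbb2, and control replicate 1 is the lowest control for Erbb4 and Erbb2 and the highest for Egfr.

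Erbb4 (GSMG0001693, chr1:68032186-69108060 of mm10, minus strand) encodes the receptor that the mutants were made to lose. Its controls held 1640, 5377, 4306 and 3034 normalized counts in replicates 1, 3, 4 and 5, and its mutants held 1711, 1648, 1233 and 1048 in replicates 2, 3, 4 and 5. The genotypes overlapped through control replicate 1 alone, which lay below mutant replicates 2 and 3. The row sums reads over the constitutive regions of the gene, and whether a deleted exon is among them is not stated in the sources used here. The log2 fold change was -1.25 (SE 0.34, 95% interval -2.0 to -0.49), with a limma p of 0.0041 and an adjusted limma p of 0.58. An exact permutation test over libraries gave p = 0.086, which does not pass. Leaving out control replicate 1 moved the log2 fold change to -1.58 (SE 0.26), and leaving out any other library gave -1.35 to -1.01. The call as lower was kept under each of the 17 alternatives run, with adjusted limma, edgeR or DESeq2 p-values between 0.054 and 0.82.

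Markers of the lineage were also lower in mutants as a group, but did not follow Erbb4 library by library. All 14 genes of the MGE-derived interneuron list had a log2 fold change below 0, against 46.6% of all rows tested, with a median of -0.74 and 2 called lower. This was not particular to the lineage, since 10 of 10 oligodendrocyte and 9 of 10 microglial markers were below 0 too. Of astrocyte and of excitatory markers 7 of 10 were below 0, of oligodendrocyte precursor markers 3 of 6. Of endothelial and mural markers it was 1 of 10. The mean log2 level of the MGE-derived list was 0.66 lower in mutants, with overlapping genotypes. Among controls it was lowest in replicate 5, at 10.2, whereas Erbb4 was lowest in replicate 1, where the list was at 10.8. In bulk RNA of this kind, fewer cells of a type and less RNA per cell cannot be told apart. Relative to the mean of the list, the log2 level of Erbb4 was -0.14, 0.78, 1.21 and 1.39 in controls 1, 3, 4 and 5 and 0.06, -0.06, 0.55 and 0.36 in mutants 2, 3, 4 and 5. The difference was -0.58 on the log2 scale, which an exact permutation test over libraries (two-sided) did not set apart from 0 (p = 0.17). Without control replicate 1 it was -0.90, with every remaining control above every mutant (exact permutation p = 0.029, the smallest that 3 libraries against 4 allow). That library was the one through which the genotypes overlapped, so this p-value is no independent support. Leaving out any other library gave an exact permutation p of 0.17 to 0.34.

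Erbb2 (GSMG0005881, chr11:98412484-98437716, plus strand), the partner receptor without a ligand of its own, moved the other way. Controls 1, 3, 4 and 5 had 229, 554, 604 and 725 normalized counts, and mutants 2, 3, 4 and 5 had 917, 742, 1306 and 1370. Every mutant library lay above every control, which held for 2.76% of all rows tested, and the gap between the highest control and the lowest mutant was small. Controls averaged 528 ± 212 (SD, n = 4) and mutants 1084 ± 303, a 2.16-fold difference on the log2(value + 1) scale. Its log2 fold change was 1.11 (SE 0.37, 95% interval 0.29 to 1.93), with a limma p of 0.012 and an adjusted limma p of 0.58. An exact permutation test over libraries gave p = 0.029, the smallest that 4 libraries against 4 allow. Without control replicate 1, the lowest library, the log2 fold change was 0.75 (SE 0.27) and still called, and without any other single library it ran from 0.98 to 1.30. It was called higher under each of the 17 alternatives, with adjusted p-values of 0.20 to 0.82 by limma, edgeR or DESeq2.

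Genes of other cells moved beside Erbb2 too. Of 10 markers of endothelial and mural cells 4 were called higher in mutants, with a median log2 fold change of 0.53, and the list summed to 172003 to 271668 normalized counts in controls and 262850 to 281863 in mutants. Of 10 oligodendrocyte markers 3 were called lower, with a median of -0.62. None of the genes on these lists was at 0, and their part in the Erbb2 result was not tested. Mien1, which shares 7 bases of its span with Erbb2, had a log2 fold change of -0.82, the opposite sign to Erbb2, without a call. The unnamed row GSMG0072410 shares 793 bases with Erbb2 and had -0.54, also without a call. Reads in these shared stretches cannot be assigned without strand.

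Erbb3 (GSMG0004774, chr10:128567523-128589652, minus strand), a neuregulin receptor with little kinase activity, held 147, 143, 274 and 205 normalized counts in controls 1, 3, 4 and 5. Mutants 2, 3, 4 and 5 held 203, 198, 202 and 238, within the range of the controls. Its log2 fold change was 0.18 (SE 0.35, 95% interval -0.59 to 0.95, exact permutation p = 0.49), an interval that holds a 1.5-fold difference in either direction.

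Egfr (GSMG0004899, chr11:16752201-16913907, plus strand), the receptor of EGF and its relatives, held 1104, 569, 545 and 465 normalized counts in controls 1, 3, 4 and 5 and 510, 789, 735 and 556 in mutants 2, 3, 4 and 5. Control replicate 1 was the highest of all libraries, mutants 3 and 4 lay above the other controls, and mutants 2 and 5 lay among them. The log2 fold change was 0.01 (SE 0.31, 95% interval -0.67 to 0.69, exact permutation p = 0.97). Without control replicate 1 it was 0.28, with no call.

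**Figure D2:**
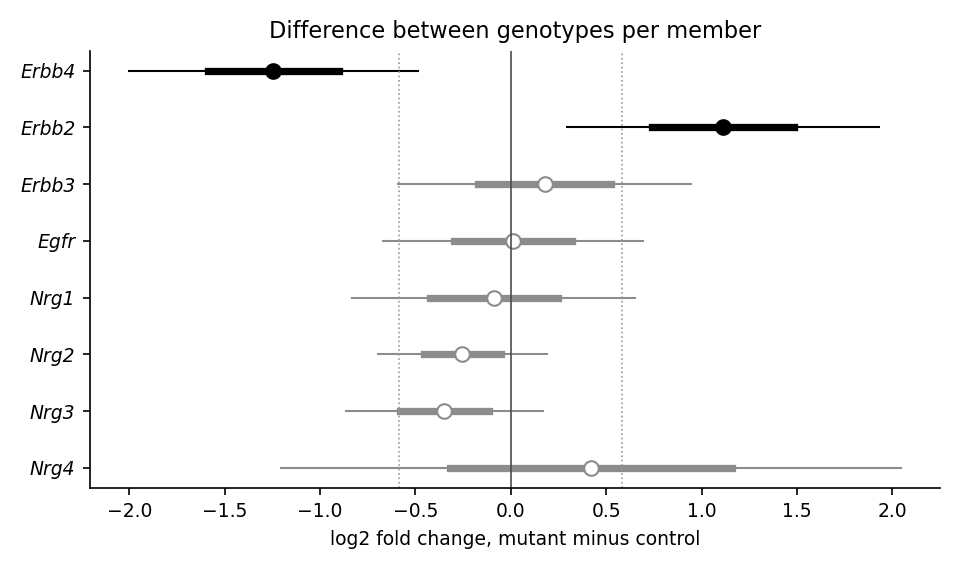
Log2 fold change of each gene (horizontal axis, mutant minus control, limma on log2(normalized count + 1)), with thick bars for 1 standard error, thin bars for the 95% interval and dotted lines at a fold change of 1.5. Filled points, Erbb4 at -1.25 and Erbb2 at 1.11, passed the thresholds, and the 4 neuregulins did not.

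None of the 4 neuregulins passed the test, and each had overlapping genotypes. Nrg1 (GSMG0038251, chr8:31814471-32009504, minus strand), the founding member of the family, held 294, 419, 309 and 210 normalized counts in controls 1, 3, 4 and 5. Its mutants 2, 3, 4 and 5 held 286, 391, 198 and 284, much the same spread as the controls. The log2 fold change was -0.09 (SE 0.34, 95% interval -0.83 to 0.65, exact permutation p = 0.66). The row spans only 18.2% of the Nrg1 gene as GENCODE draws it, at the end where the transcripts stop. Exons toward the start of the gene, where other forms begin, are not covered by its span.

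Nrg2 (GSMG0071317, chr18:36014581-36197391, minus strand) encodes a neuregulin that neurons make. Controls 1, 3, 4 and 5 had 1230, 1586, 1689 and 1440 normalized counts, and mutants 2, 3, 4 and 5 had 1164, 1524, 1119 and 1184. Mutants 2, 4 and 5 lay below all controls, and mutant 3 lay among them. The log2 fold change of -0.25 (SE 0.20, 95% interval -0.70 to 0.19) did not pass (limma p = 0.23, exact permutation p = 0.14).

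Nrg3 (GSMG0012245, chr14:38368951-39473088, minus strand), known as a ligand of ErbB4 on excitatory terminals that contact PV+ interneurons, had 778, 1163, 998 and 775 normalized counts in controls 1, 3, 4 and 5. Mutants 2, 3, 4 and 5 had 864, 772, 685 and 583. Mutants 3, 4 and 5 lay below the lowest control and mutant 2 above it, so the genotypes overlapped by 1 library. Its log2 fold change was -0.35 (SE 0.24, 95% interval -0.87 to 0.17, limma p = 0.17, exact permutation p = 0.11). The excitatory neuron list, the usual source of this ligand, had a median of -0.18 with 1 of its 10 tested genes called lower and 1 higher.

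Nrg4 (GSMG0040789, chr9:55220223-55283625, minus strand), a ligand of ErbB4 best known outside the brain, was scarce, with 10 to 86 reads per library. Controls 1, 3, 4 and 5 had 13.6, 32.8, 67.1 and 89.0 normalized counts and mutants 2, 3, 4 and 5 had 73.5, 60.0, 25.6 and 79.4. The libraries of each genotype spread over nearly the same range. The log2 fold change was 0.42 (SE 0.74), and its 95% interval of -1.21 to 2.05 shows that a difference would not have been detectable in these libraries unless it was several-fold. Counting alone gives a spread of 31.6% at the library with 10 reads. The SD between libraries was 66.8% of the mean in controls and 40.4% in mutants. Its row covers 59.5% of the GENCODE gene and shares 4211 bases of span with Fbxo22, so reads in the shared stretch cannot be assigned without strand.

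Levels of different genes were compared per kilobase of the longest GENCODE transcript. Reads were counted on constitutive regions only, and the lengths of those regions are not stated in the sources used here. The length used can therefore exceed the counted sequence by a different amount in each gene, which limits the order and the ratios. The rows of Nrg1 and Nrg4 span 18.2% and 59.5% of their genes. In controls the order was led by the ligand Nrg2 at 486 ± 65.2 normalized counts per kb (SD, n = 4), followed by Erbb4 at 298 ± 134 and Nrg3 at 232 ± 46.8. Then came Erbb2 at 105 ± 42.2, Egfr at 65.7 ± 28.6, Nrg1 at 56.9 ± 15.8, Erbb3 at 32.0 ± 10.2 and Nrg4 at 24.2 ± 16.1. Only the step from Nrg3 to Erbb2 separated the ranges of neighbours, and at every other step the libraries overlapped. Against 16593 tested genes with a matched length, these levels ran from percentile 63.9 for Nrg2 to percentile 14.8 for Nrg4, with Erbb4 at 53.7. Counted over all exons of each gene together, Nrg1 was at 29.8 per kb and below the 32.0 of Erbb3, and the rest of the controls' order was the same. Nrg3 was then at 136 ± 27.5 and its range overlapped that of Erbb2, and the step from Nrg1 to Nrg4 was the one without overlap.

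In mutants Erbb2 stood second behind Nrg2, at 216 ± 60.5 normalized counts per kb, and Erbb4, at 117 ± 26.7, came after Nrg3 at 181 ± 29.9. Nrg2 remained above the next gene in every mutant library, without overlap. The ranges of Erbb2 and Nrg3 overlapped, and those of Nrg3, Erbb4 and Egfr, next to each other in that order, did not. The order of Erbb4 and Nrg3 depended on the length used, since over all exons Erbb4 was at 114 ± 26 and Nrg3 at 106 ± 17.6, with overlapping libraries.

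Within the receptors the makeup therefore differed between genotypes. Erbb4 made up 43.3%, 70.2%, 62.0% and 52.9% of the summed receptor level per kb in controls 1, 3, 4 and 5, and 34.8%, 34.6%, 21.9% and 19.2% in mutants 2, 3, 4 and 5. Each control lay above each mutant, control replicate 1 included. Controls had a mean share of 57.1% ± 11.6 (SD, n = 4) and mutants one of 27.6% ± 8.27. The share of Erbb2 was 20.8% ± 6.89 in controls and 49.5% ± 10.3 in mutants, again with no overlap (14.5% to 30.4% and 37.5% to 60.2%). Erbb4 RNA per kb was 1.74 to 4.04 times that of Erbb2 in the controls and 0.318 to 0.924 times in the mutants. These shares restate the values of Erbb4 and Erbb2 within a library and so carry no test of their own. Since they are ratios inside 1 library, its size factor cancels out of them.

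**Figure D3:**
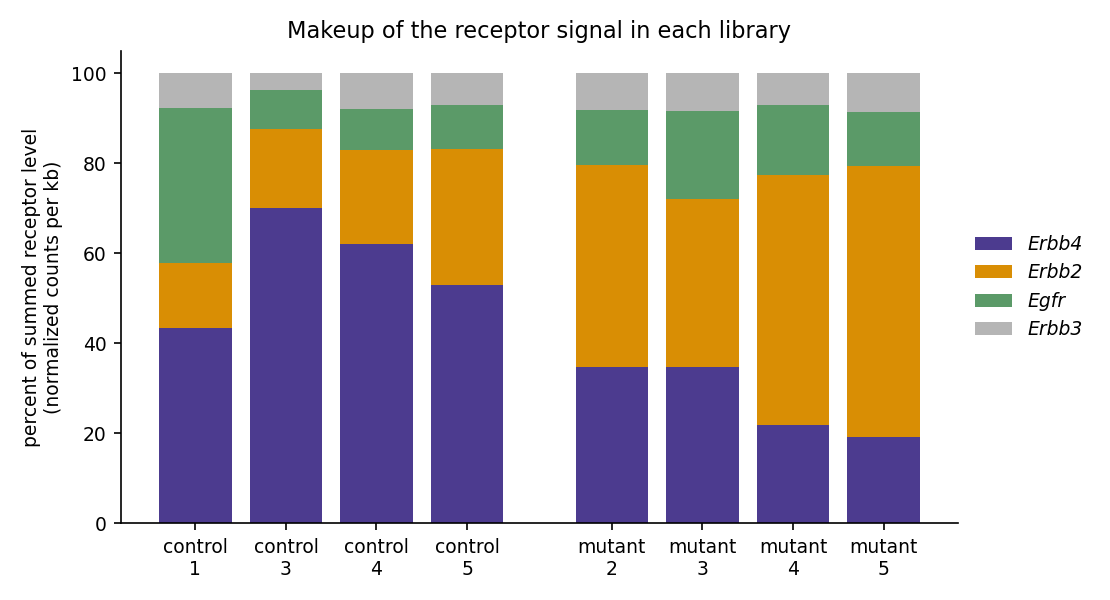
Makeup of the summed receptor level (vertical axis, percent of normalized counts per kb of the longest transcript) in each control and mutant library. Erbb4 is the largest part of every control bar (43.3% to 70.2%) and Erbb2 the largest part of every mutant bar (37.5% to 60.2%).

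The makeup of the neuregulins overlapped between genotypes. Nrg2 was 61.0% ± 2.44 (SD, n = 4) of the summed neuregulin level per kb in controls and 60.8% ± 3.45 in mutants, Nrg3 28.9% ± 2.63 and 27.1% ± 3.89. Nrg1 and Nrg4 shared the remainder. Receptors summed to 501 ± 141 normalized counts per kb in controls and 432 ± 35.3 in mutants, and neuregulins to 799 ± 118 and 671 ± 90.1. On this measure the receptor sum was thus below the neuregulin sum, at 0.618 ± 0.0975 of it in controls and 0.657 ± 0.134 in mutants, with overlapping libraries. The ratio of Erbb4 to Nrg3, a receptor and its ligand, was 1.25 ± 0.38 in controls and 0.643 ± 0.0542 in mutants, and overlapped only through control replicate 1 at 0.702. With the length of all exons it was 2.06 ± 0.62 in controls and 1.06 ± 0.0897 in mutants, so whether it lies above or below 1 in mutants rests on the length.

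The rest of the pathway was read from 4 lists of 61 genes, the other EGF family ligands, the proteases that shed ligands and cut receptors, receptor scaffolds and regulators, and adaptors with downstream enzymes. Of the 60 tested, 8 were called higher and 2 lower in mutants, 16.7% in all against the background of 7.15%, and 0 passed an adjusted limma p of 0.05. That background includes 13797 rows without a symbol, of which 3.65% were called higher and 1.36% lower. All pathway genes have a symbol, and rows with a symbol were called more often than 7.15%, so this contrast is overstated. The median log2 fold change of the 60 genes was 0.28, against 0.06 over all rows tested. In 10 of them all mutants lay above all controls and in 0 all lay below. Among all rows tested 2.76% showed the former and 2.17% the latter, 4.93% either. The count depended on single libraries. Without control replicate 1 it was 0 higher and 0 lower. The genes called higher numbered 13 without control replicate 4, 3 without mutant replicate 4 and 4 without mutant replicate 5. Those called lower numbered 0 without control replicate 3, mutant replicate 4 or mutant replicate 5 and 4 without control replicate 5.

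Among the ligands, Tgfa, which activates the EGF receptor, was called higher. Its controls 1, 3, 4 and 5 had 5655, 9728, 12671 and 12196 normalized counts and its mutants 2, 3, 4 and 5 had 14112, 16246, 17567 and 18668, with no overlap. The log2 fold change was 0.79 (SE 0.26, limma, adjusted p = 0.58). The other 5 ligands tested did not pass, and Ereg was listed at 0 in all libraries.

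The processing enzymes were called in both directions. Adam10 and Adam17, the proteases that release ErbB ligands and the ErbB4 ectodomain, were called higher, with log2 fold changes of 0.68 (SE 0.30) and 0.59 (SE 0.22). Psen2, of the γ-secretase that cuts ErbB4 within the membrane, was called lower, with -1.18 (SE 0.50). Of the list 5 enzymes did not pass, and it had a median of -0.37.

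Of the 12 receptor scaffolds and regulators 3 were called higher, and 1 had a log2 fold change below 0. Erbin, a scaffold that binds ErbB2, had 894, 1519, 2219 and 1920 normalized counts in controls 1, 3, 4 and 5 and 2255, 2431, 3639 and 3038 in mutants 2, 3, 4 and 5. All mutants lay above all controls, by a narrow margin over control replicate 4, with a log2 fold change of 0.85 (SE 0.29). The ubiquitin ligases Cbl, which takes the EGF receptor to degradation, and Itch, which acts on ErbB4, rose by 0.77 (SE 0.27) and 0.68 (SE 0.21) on the log2 scale, without overlap. Of the 33 adaptors and downstream enzymes only Gab1, a docking protein, and Pik3ca, the catalytic subunit of PI3K, were called, both higher, with 0.81 (SE 0.30) and 0.70 (SE 0.28).

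**Figure D4:**
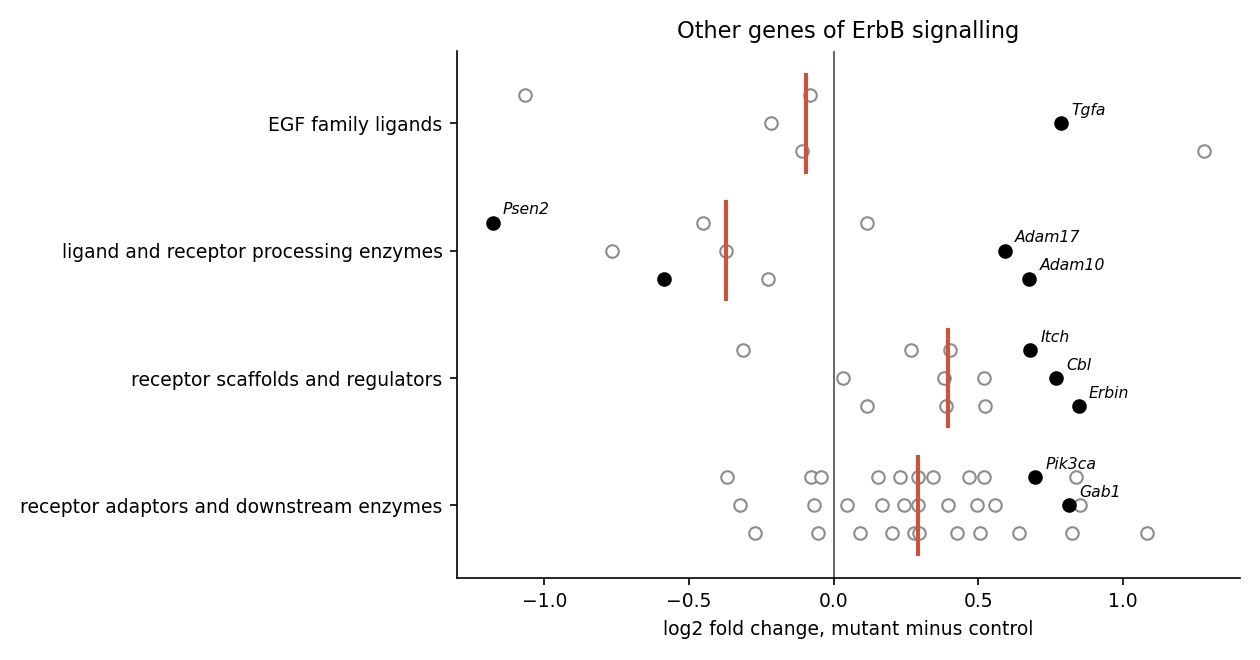
Log2 fold change (horizontal axis, mutant minus control) of the 60 pathway genes tested, by list, with filled points for genes past the thresholds, named where the text names them, and a red bar at each list's median. The 8 genes called higher lie between 0.59 and 0.85, and Psen2, called lower, lies at -1.18.

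The other marker lists moved as follows beside these genes. PV+ interneuron markers had a median log2 fold change of -1.26 with 3 of 6 called lower, SST+ markers -1.26 with 1 of 6, and markers of CGE-derived interneurons, which Lhx6-Cre does not mark, -0.53 with 0 of 6. Astrocyte markers had a median of -0.17, microglial markers -0.44 and oligodendrocyte precursor markers 0.04, with 0 called in each. The first gene of the PV+ list, Pvalb, was called lower at -2.08 (SE 0.78), against -1.25 for Erbb4. Lhx6 was at -0.69, Sst at -1.5, Vip at -0.60, Slc17a7 at -0.15, Mbp at -0.64, Pdgfra at 0.25, Aqp4 at -0.37, Cx3cr1 at 0.06 and Cldn5 at -0.13, and 0 of these 9 was called. The part of these cells in the values of the receptors was not tested.

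The genes whose pattern over the 8 libraries was nearest to that of Erbb4 were sought among 20014 rows with a mean of at least 100 in either genotype, by the mean absolute log2 difference after each gene's own mean was subtracted. They were the unnamed row GSMG0032166 (0.24), D17H6S53E (0.28), the joint row of Sox1 and Sox1ot (0.29), Abca5 (0.29) and Ankrd34b (0.32). For Nrg3 they were Snap91 (0.056), Bace1 (0.062), Galk1 (0.065), Cds1 (0.068) and Ankrd34a (0.072). The distance is not scaled by a gene's spread, and Nrg3 ranged from 583 to 1163 normalized counts, Erbb4 from 1048 to 5377. The smaller distances for Nrg3 therefore do not show a closer match of pattern. Bace1 encodes the protease that cleaves Nrg1 and is on the processing list, where its log2 fold change was -0.23 (SE 0.20), without a call. These distances are descriptions, taken over the same 8 libraries of both genotypes for every gene.

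The table also holds rows that lie within the span of a member, and those within Erbb4 differed by position. They were examined after their values had been seen. The Erbb4 span contains 24 rows without a symbol, 0 of which touch an Erbb4 exon in GENCODE. Of the 22 tested, 6 were called higher and 2 lower in mutants, where among all tested rows without a symbol 3.65% were called higher and 1.36% lower. The span of Nrg3, slightly longer, holds 24 rows of which 23 were tested and 0 called by limma. Counting is not stated to use strand, so reads from an unspliced Erbb4 transcript and from another transcript in the same intron cannot be told apart.

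Rows that lie after exon 2 of Erbb4, in introns 2, 3, 19 and 20, were 9 tested of 10, all with a log2 fold change above 0 and 5 of them called higher. Together the 10 rows summed to 138, 391, 163 and 453 normalized counts in controls 1, 3, 4 and 5 and to 835, 1493, 635 and 624 in mutants 2, 3, 4 and 5. All mutants lay above all controls, opposite to the Erbb4 row itself. Gm37769 (chr1:68711037-68713405, intron 2) had 79.1, 96.5, 58.1 and 96.5 normalized counts in controls and 168, 242, 164 and 190 in mutants, in the same replicate order, a log2 fold change of 1.21 (SE 0.40). Gm37735 (chr1:68639424-68640829, intron 2) likewise showed no overlap, with 5.45 to 61.8 in controls and 72.8 to 383 in mutants.

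Intron 1, which is 367 kb long, held 13 tested rows of 14, with 5 above and 8 below 0. They summed to 1158 ± 171 (SD, n = 4) for controls and 1138 ± 450 for mutants. Here the extremes lay at its ends. The row GSMG0001716 (chr1:69067826-69069553), 39.4 kb from the start of Erbb4, held 57.3, 149, 76.1 and 44.5 normalized counts in controls 1, 3, 4 and 5 and 0, 0, 4.10 and 0 in mutants 2, 3, 4 and 5. It was the lower of the extremes, with a limma p of 0.00014 and an adjusted p of 0.18 (0.00036 to 0.71 over the alternatives, by limma, edgeR or DESeq2). Gm37061 (GSMG0001704, chr1:68758485-68761727), 348 kb from the start and close to exon 2, held 0, 0, 36.0 and 0 in controls and 159, 155, 147 and 161 in mutants. All mutants were far above all controls, with a limma p of 0.00042 and an adjusted p of 0.42 (0.034 to 0.82 over the alternatives by the same tools). The fitted log2 fold changes of both rows, -5.63 (SE 0.98) and 5.99 (SE 1.20), depend on the pseudocount, since most libraries of 1 genotype were at 0. With edgeR 3 rows of the span were called higher and 2 lower. Leaving out control replicate 1, mutant replicate 3 or mutant replicate 5 left 1 called lower.

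**Figure D5:**
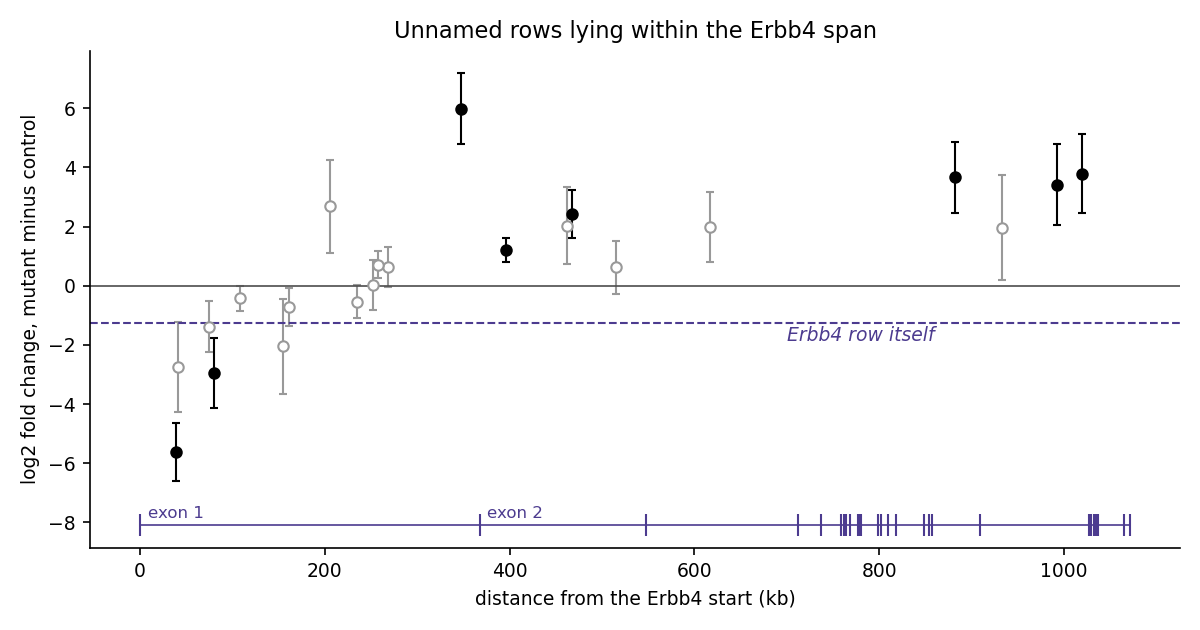
Log2 fold change ± 1 standard error (vertical axis, mutant minus control) of the 22 tested rows inside the Erbb4 span against the distance of their middle from the Erbb4 start (horizontal axis, kb), filled where called. Rows below 0 lie within 235 kb of the start, all 9 rows beyond exon 2 lie above 0, ticks at the bottom mark Erbb4 exons, and the dashed line is the Erbb4 row at -1.25.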

How the data were processed

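Ribosome-associated RNA of cortical synaptosomes was sequenced from 4 control and 4 Erbb4 conditional mutant libraries, grouped by the titles and genotypes in their labels. The methods of the study name 4 biological replicates per genotype. The authors deposited a signal per gene, reads divided by a DESeq2 size factor, called normalized counts here. Paired-end reads had been aligned to mm10 with STAR 2.4.0 and counted on constitutive regions of Fast DB genes. Dividing a library's values by the lowest one over 0 gave whole reads for 100% of them, within a tolerance of 0.01.

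Rows averaging 10 or more in either genotype entered limma 3.58.1 (lmFit, eBayes with trend, R 4.3.3) on log2(value + 1), with no covariate and Benjamini-Hochberg adjustment over 31171 rows. Fold changes on that scale understate changes of low genes. Exact permutation tests compared single values over libraries, two-sided. Alternatives were edgeR 4.0.16 with TMM, by quasi-likelihood, and DESeq2 1.42.0 on the recovered reads, which called 10 and 68 rows at an adjusted p of 0.05 against 14, pseudocounts of 0.1 and 10, other filters, library weights, no trend, a replicate block and leaving out each library. Lengths and exons came from GENCODE vM21, matched by symbol for 16593 of 17374 named rows tested. All 8 members are named, with the called genes of each pathway list, the first gene of each marker list and the 5 nearest patterns to Erbb4 and Nrg3. Members and lists were chosen with earlier results of these data known, and the rows within member spans, and the Erbb4 to Nrg3 ratio over all exons, after values were seen. Depth, 51010687 to 80226984 gene reads, adds counting error to rows of few reads such as Nrg4, and the spread between libraries limits all rows, Nrg4 included. Neurod1 of the excitatory list was not analysed here, and 1 called gene of the pathway lists is counted but not reported by name.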

Additional observations from a re-analysis of the deposited data

Results flagged for a closer look

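Of 36 groups of 4 libraries examined, 7 held a library that stood apart from the other 3 by Dixon's criterion at the 95% level, where chance gives about 1.8. Control replicate 1 had 1104 normalized counts of Egfr against 465 to 569 in the other controls, and the same library had the most Mbp of all, 535543 normalized counts. Mutant replicate 5 had 238 normalized counts of Erbb3 against 198 to 203 in the other mutants. Mutant replicate 3 had 1524 of Nrg2 against 1119 to 1184.

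The remaining 4 were rows inside the Erbb4 span in which 3 libraries of a genotype were at 0 and the other was not, a layout that always meets the criterion. Control replicate 5 had 34.6 normalized counts of Gm37100 in intron 20. Control replicate 4 had 16.0 of a row in intron 19 and 36.0 of Gm37061. Mutant replicate 4 had 4.10 of GSMG0001716, the row nearest to the start of Erbb4.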

How the results depend on the processing

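Erbb4 and Erbb2 kept their direction and their call under each of 17 alternatives, and Nrg2 and Nrg3 kept their direction without a call. The log2 fold changes of Egfr, Erbb3, Nrg1 and Nrg4 had no call in any alternative and changed sign in some, for which the cause was not tested. Egfr was -0.022 with edgeR and -0.034 with DESeq2, Erbb3 -0.016 with library weights and Nrg4 -0.31 with weights. When single libraries were left out, Egfr ran from -0.14 to 0.28, Nrg1 from -0.26 to 0.080 and Nrg4 from -0.084 to 0.79. Pathway genes called lower numbered 1 with edgeR, with a pseudocount of 10 and with weights and 0 without the trend, and 0 to 4 when single libraries were left out. Those called higher numbered 4 without the trend and 0 to 13 when single libraries were left out. Erbb4 relative to the MGE markers ran from -0.90 to -0.39 when libraries were left out and passed only without control replicate 1. The log2 receptor to neuregulin ratio in controls, -0.71, became -0.46 with the length of all exons, and the Erbb4 to Nrg3 ratio 2.06 in controls and 1.06 in mutants, from 1.25 and 0.643. Rows of the Erbb4 span called lower numbered 0 with a minimum mean of 100, which leaves fewer rows to test. Nrg4 was not tested under that minimum.

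Replicate numbers 3, 4 and 5 occur in both genotypes, and no source says what they mark. The same-numbered libraries deviated together with correlations of 0.1, 0.098 and 0.082, too weak for the numbers to be taken as pairs. Differently numbered libraries reached similar values, such as 0.085 for control 5 with mutant 4 and 0.083 for control 3 with mutant 2. Between genotypes, correlations were above 0 among replicates 1 to 3 and among replicates 4 and 5. Across these sets they were all below 0, down to -0.115. Deviations were taken from the mean of each genotype and sum to 0 within it. Correlations above 0 with some libraries therefore force others below 0, so the signs are partly arithmetic. What the sets mark was not tested. With a replicate block the log2 fold change of Erbb4 was -1.68, of Erbb2 0.82, of Nrg3 -0.51 (an unadjusted limma p past 0.05 but a fold below 1.5, so no call) and of Nrg4 -0.22, and 3 rows of the Erbb4 span were called higher.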
